A study of Caenorhabditis elegans with 20 samples.

Results

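The invertebrate-type lysozyme genes of the nematode Caenorhabditis elegans are ilys-1, ilys-2, ilys-3, ilys-4, ilys-5 and ilys-6. They were chosen by name, as the rows of the deposited count table whose WormBase identifiers carry those symbols, which gave 6 of 46904 genes. Their messenger RNA was measured by sequencing in 4 groups of whole young adults. These were the mutant ns889 on plates with the mold Penicillium brevicompactum, ns889 on plates without it, wild-type (WT) animals on plates with the mold, and WT animals on plates without it. Every group had E. coli OP50 on its plates and was grown for about 48 hours at 20 C after arrest at the first larval stage. The labels give ns889 as a genotype and do not name the gene it affects. Each group held 3 replicates.

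Lysozymes cut the sugar backbone of peptidoglycan, the polymer that stiffens bacterial cell walls, and in animals they serve both digestion and defence. C. elegans carries lysozymes of the invertebrate type, which it shares with molluscs, insects and other invertebrates, and of the protist type (the lys genes). ILYS-3, the best studied invertebrate-type member in the worm, acts in the pharynx and intestine in the breakdown of ingested bacteria, and its gene responds to infection through ERK MAP kinase signalling. Fungal walls hold chitin and glucans in place of peptidoglycan.

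Of the 6 genes, 5 lie on chromosome IV and 1 on the X chromosome (WBcel235). ilys-3 (WBGene00016670, IV:2464456-2465401), ilys-2 (WBGene00016669, IV:2467681-2468810) and ilys-1 (WBGene00016668, IV:2470414-2471449) follow each other on the plus strand, with 2279 bases between ilys-3 and ilys-2 and 1603 bases between ilys-2 and ilys-1. ilys-6 (WBGene00020982, IV:4062567-4063673) and ilys-4 (WBGene00016958, IV:7895629-7897543) lie farther along the chromosome on the minus strand. ilys-5 (WBGene00017691, X:6533493-6536840) is on the minus strand of X. The annotated coding sequences of ilys-2, ilys-3 and ilys-5 each encode 139 residues, that of ilys-6 encodes 138 and that of ilys-4 encodes 159. The coding sequence of ilys-1 encodes 73 residues. ilys-4 lies inside the span of atic-1, which is on the other strand, and the annotated exons of the pair share 0 bases.

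The replicates held 95998037 to 115940062 counted reads, and a floor of 3 counts was equal to 0.0259 to 0.0313 CPM (counts per 1e6 counted reads). Floors and intervals take in counting error alone. Nothing in the labels tells whether the replicates came from separate cultures, and the p-values then reflect the spread among these samples, which may be technical. Measured as a root mean square log2 difference from its group, replicate 1 of WT without mold stood apart most (0.424), before replicate 3 of WT with mold (0.355). For the remaining libraries this distance was 0.152 to 0.328. Each call of an ilys gene is therefore also given without those 2 libraries together. Of all genes, 16980 were abundant enough to test, and 4 of the 6 ilys genes were among them.

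The members covered a wide range of abundance. Per length, in RPKM (CPM per kilobase of gene length, averaged over the 12 replicates), ilys-5 had the highest level with 258 RPKM, and only 2.26% of tested genes had a higher one. ilys-4 followed with a level of 9.50 RPKM, ilys-2 with 3.61 RPKM and ilys-3 with 0.384 RPKM. ilys-1 had 20 counts over the 12 replicates together and 0 counts in 6 of them, and no replicate had more than 6. ilys-6 had 0 counts in all 12 replicates. ilys-1 and ilys-6 were therefore not tested. ilys-2 and ilys-3 had at least 10 counts in all 3 WT replicates with mold and all 3 without it, in 2 of 3 ns889 replicates without mold and in 0 of 3 ns889 replicates with mold, so they entered the test through WT.

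**Figure D1:**
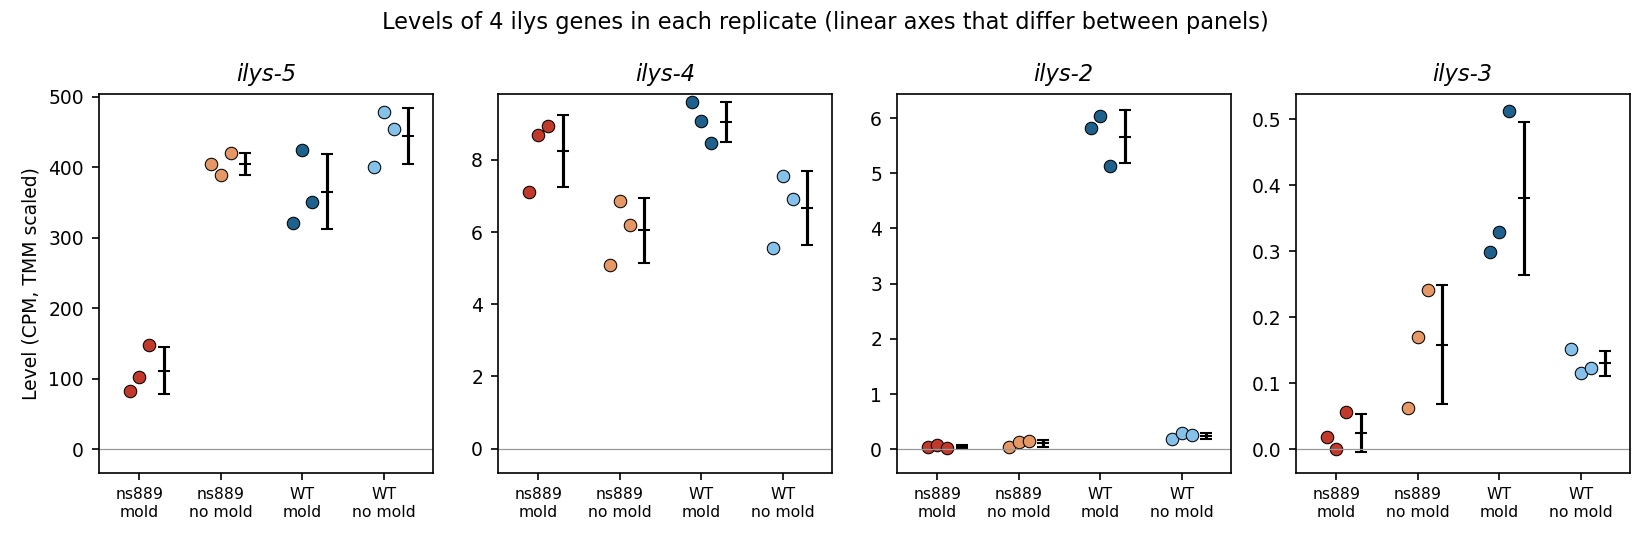
Level of ilys-5, ilys-4, ilys-2 and ilys-3 in each replicate (points) with the group mean and SD (bars, n = 3), in CPM with TMM scaling on linear axes that differ between panels. ilys-5 is low in ns889 with mold alone among the groups (83.2 to 148 CPM), and ilys-2 is high in WT with mold alone (5.12 to 6.04 CPM).

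ilys-2 had the largest changes of the 4 tested members except with mold in ns889, where those of ilys-3 and ilys-5 were larger. Replicates 1 to 3 of ns889 with mold had 0.0364, 0.0831 and 0.0278 CPM of ilys-2, which correspond to 4, 9 and 3 counts. ns889 replicates without mold had 0.0444, 0.131 and 0.151 CPM. WT replicates with mold had 5.82, 6.04 and 5.12 CPM, or 641, 588 and 499 counts, and WT replicates without mold had 0.186, 0.295 and 0.267 CPM. All 3 WT replicates with mold stood far above the other 9. The ns889 groups overlapped each other, and both lay below all WT replicates.

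ilys-2 rose with mold in WT animals by 4.51 ± 0.34 on the log2 scale (SE, adjusted p = 1.6e-05, edgeR's quasi-likelihood test), about 22.8-fold. Without the 2 libraries that stood apart, its change in WT was 4.39 (adjusted p = 1.96e-05). In ns889 animals the change of ilys-2 with mold was -1.11 ± 0.49 and did not pass (adjusted p = 0.35). The ratio of its summed counts in ns889, scaled to library totals, with mold over without, was 0.486 (95% exact interval 0.25 to 0.908). Between genotypes on mold, ilys-2 was lower in ns889 by a log2 fold change of -6.82 ± 0.41 (adjusted p = 1.6e-06), a 113-fold difference, and the value without those libraries was -6.88 (adjusted p = 1.65e-07). Without mold the log2 fold change of ns889 over WT was -1.20 ± 0.39 for ilys-2. It missed the threshold (adjusted p = 0.171) although the replicates did not overlap, and it passed with DESeq2 (adjusted p = 0.0238). Messenger RNA was taken from whole animals, so fewer cells expressing a gene and less RNA per cell cannot be told apart here.

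ilys-3, the neighbour of ilys-2, had at most 50 counts in a replicate. ns889 replicates with mold had 2, 0 and 6 counts, at 0.0182, 0 and 0.0557 CPM. ns889 replicates without mold had 0.0622, 0.171 and 0.241 CPM. WT replicates with mold had 0.300, 0.329 and 0.513 CPM and WT replicates without mold had 0.152, 0.116 and 0.123 CPM. ns889 with mold was thus the lowest group and WT with mold the highest, with no overlap with the groups between them, and those 2 groups, both without mold, overlapped each other.

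With mold, ilys-3 was lower in ns889 than in WT by a log2 fold change of -3.89 ± 0.71 (adjusted p = 0.00592), and by -3.61 without the libraries that stood apart (adjusted p = 0.00885). This rests on 8 counts summed over ns889 replicates and 115 over WT replicates, a ratio of 0.0689 (95% exact interval 0.0291 to 0.140). Without mold the genotypes differed by 0.26 ± 0.60 (adjusted p = 0.957), and the value turned to -0.18 without ns889 no mold replicate 3. The change with mold was -2.62 ± 0.74 in ns889 animals (adjusted p = 0.092) and 1.53 ± 0.57 in WT animals (adjusted p = 0.126). Neither passed, although replicates did not overlap in either genotype. The ns889 value passed with DESeq2 (adjusted p = 0.0158), without ns889 mold replicate 3 (0.0490) and without the libraries that stood apart (0.0434).

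ilys-5, the most abundant member, had 83.2, 102 and 148 CPM in ns889 replicates with mold. ns889 replicates without mold had 404, 389 and 420.4 CPM. WT replicates with mold had 321, 424 and 350.0 CPM, and WT replicates without mold had 399.7, 478 and 454 CPM. The ns889 replicates with mold were the lowest 3 of the 12, and the other groups overlapped their neighbours in the order of means.

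The level of ilys-5 averaged 111 ± 33.5 CPM in ns889 with mold and 405 ± 15.8 CPM in ns889 without mold (SD, n = 3 each). It fell with mold in ns889 by 1.87 ± 0.18 on the log2 scale (adjusted p = 0.000124), and the log2 fold change was -1.87 without the libraries that stood apart (adjusted p = 0.00293). In WT animals its change with mold was -0.28 ± 0.17 (adjusted p = 0.311). On mold, ilys-5 was lower in ns889 than in WT (log2 fold change -1.72 ± 0.17, adjusted p = 0.000115, and -1.75 with adjusted p = 0.00419 without those libraries). Without mold the genotypes differed by -0.13 ± 0.17 (adjusted p = 0.892). The genotypes thus had overlapping levels of ilys-5 without mold and separate levels with it.

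ilys-4 had a level of 7.11, 8.69 and 8.95 CPM in ns889 replicates with mold and of 5.09, 6.86 and 6.19 CPM in ns889 replicates without mold. WT replicates with mold had 9.60, 9.08 and 8.48 CPM and WT replicates without mold had 5.55, 7.56 and 6.91 CPM. Replicates with mold lay above those without it in each genotype, and the genotypes overlapped under both conditions. The log2 fold change with mold was 0.45 ± 0.16 in ns889 (adjusted p = 0.19) and 0.44 ± 0.16 in WT (adjusted p = 0.105). DESeq2 placed both past the threshold, with adjusted p = 0.0446 in ns889 and 0.0343 in WT, and the ns889 value also passed without the libraries that stood apart (adjusted p = 0.0370). ns889 over WT gave -0.13 ± 0.15 with mold (adjusted p = 0.601) and -0.14 ± 0.16 without it (adjusted p = 0.869). The strand setting of the counting is not given, so unspliced reads of atic-1 that fall on ilys-4 exons, if any, cannot be told apart from reads of ilys-4. atic-1 itself averaged 35.4 CPM in ns889 with mold, 43.4 in ns889 without mold, 31.9 in WT with mold and 30.8 in WT without mold, and it passed in 0 of the 5 comparisons.

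**Figure D2:**
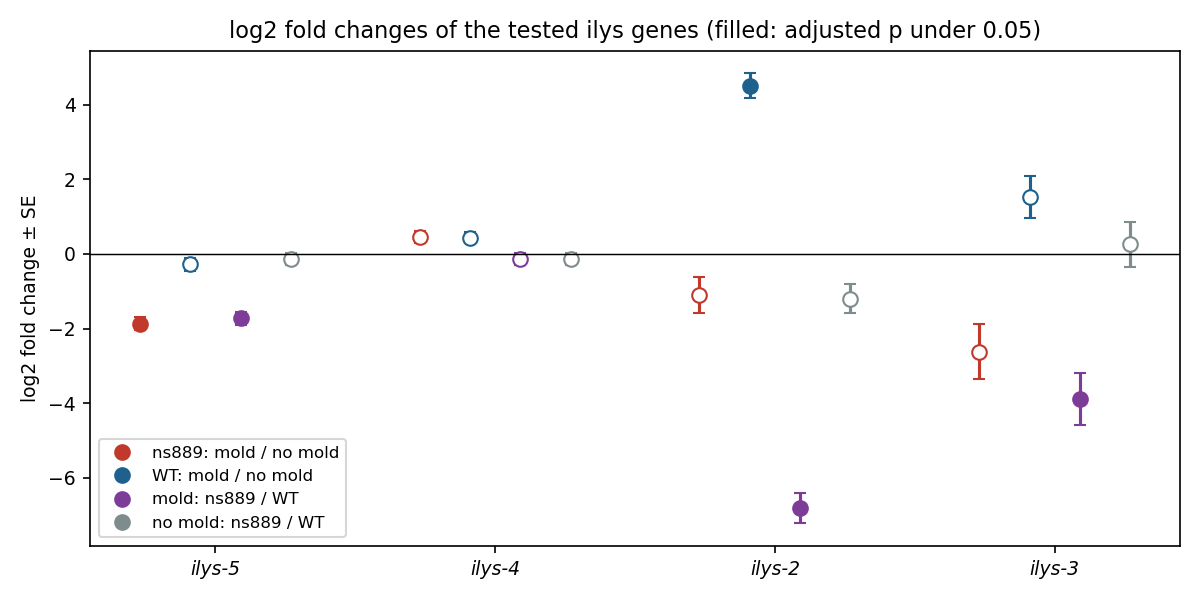
log2 fold change (points) and SE (bars) of the 4 tested ilys genes in the 2 mold responses and the 2 genotype comparisons, with filled points where the adjusted p of edgeR was under 0.05. ilys-2 rises in WT (4.51), ilys-5 falls in ns889 (-1.87), and ilys-2, ilys-3 and ilys-5 are lower in ns889 than in WT on mold.

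Counted by comparison, 1 of the 4 tested members (ilys-5) changed with mold in ns889, where 3.14% of all tested genes did (1.86% higher and 1.28% lower). In WT 1 of 4 (ilys-2) changed with mold, against 6.27% of all tested genes (1.67% higher and 4.6% lower). With mold 3 of 4 members were lower in ns889 than in WT and 0 were higher, where 6.73% of all tested genes passed (5.12% higher and 1.61% lower). Of these 3, ilys-2 and ilys-3 entered the test through WT, where they were higher, so their direction is not independent of the filter. Without mold 0 of 4 members passed with edgeR, where 2.87% of all tested genes did (2.42% higher and 0.453% lower). At an unadjusted p under 0.05 it was 1 member, ilys-2, where 2000 of the 16980 tested genes were (11.8%), and ilys-2 was also the 1 that DESeq2 called. As ilys-2 entered the test through WT, its direction without mold is not independent of the filter either. The counts in the gene and marker lists below are read against the same shares of all tested genes past the adjusted threshold.

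Groups whose replicates did not overlap were counted as well. They were found for 3 of 4 members between ns889 with and without mold, where 31.6% of all tested genes had this, and for 3 of 4 between WT with and without mold, where 17.5% did. Between ns889 and WT it was 3 of 4 with mold, where 31.4% of all tested genes had this, and 1 of 4 without mold, where 18.3% did. With mold these included ilys-2 and ilys-3, which entered the test through WT. The 1 member without mold was ilys-2, to which the same limit applies. The median log2 fold change over all tested genes lay within 0.04 of 0 in every comparison.

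The last comparison asked whether the mold response of ns889 differed from that of WT. All 4 groups enter it, and a negative value means a lower response in ns889. ilys-2 differed by -5.62 ± 0.59 (adjusted p = 0.0020), which placed it at rank 4 by p among the 16980 genes. Without the libraries that stood apart the difference was -5.50 (adjusted p = 0.00108). ilys-5 differed by -1.58 ± 0.24 (adjusted p = 0.0238, rank 17), and ilys-3 by -4.15 ± 0.94, which did not pass with edgeR (adjusted p = 0.26) and passed with DESeq2 (adjusted p = 0.00737). The mold responses of ilys-4 differed by 0.0075 ± 0.22 (adjusted p = 0.995). Hence 2 of 4 members passed, both lower in ns889, where 0.13% of all tested genes passed (0.0353% higher and 0.0942% lower). Of these 2, ilys-2 entered the test through WT, so its direction is not independent of the filter.

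The ilys-5 difference was near the threshold. It kept its sign, between -1.85 and -1.41, when each library was left out in turn, and its adjusted p then ran from 0.00254 to 0.105. The call was lost without ns889 mold replicate 2, without any of the ns889 replicates on plates without mold, without WT mold replicate 2 or 3 and without any of the WT replicates on plates without mold. It was also lost without the libraries that stood apart (-1.54, adjusted p = 0.0979). The ilys-2 difference passed in all 12 of these refits, between -6.18 and -5.30 (adjusted p = 0.000515 to 0.0155).

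**Figure D3:**
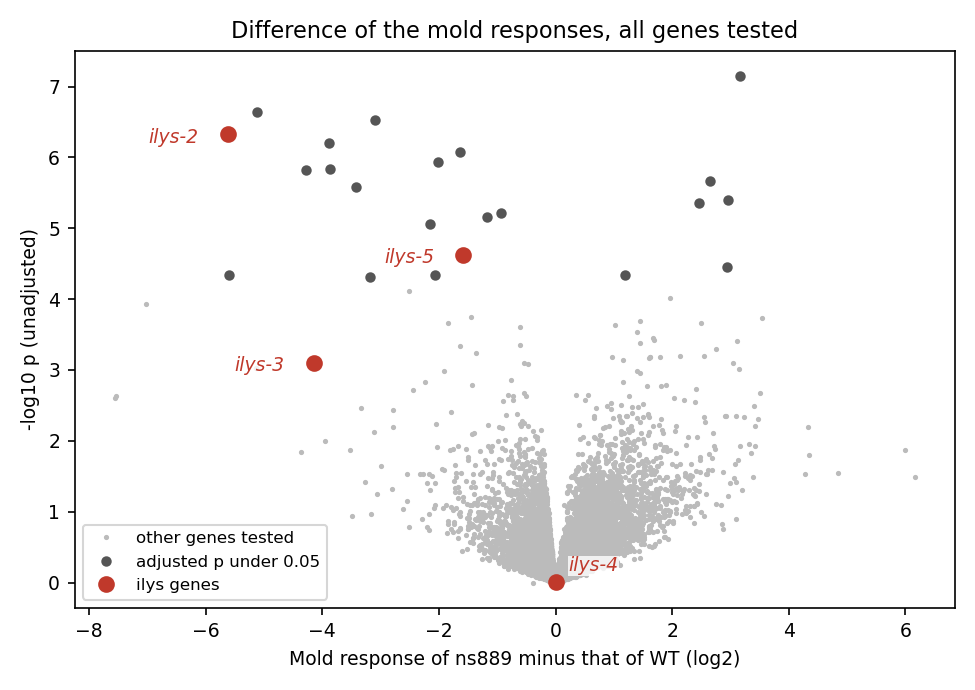
Difference of the mold responses (ns889 minus WT, log2, horizontal axis) against -log10 of the unadjusted p (vertical axis) for every tested gene, with the 22 genes past the threshold in dark grey and the ilys genes in red. ilys-2 (-5.62) and ilys-5 (-1.58) are among the genes with a lower response in ns889, ilys-3 (-4.15) is below the threshold and ilys-4 sits at 0.

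To place these patterns, the 3 genes with the smallest root mean square difference from each member's profile were found among 9612 genes with a mean of at least 5 CPM, over the 12 replicates and on the centred log2(CPM + 0.5) scale. The profiles share libraries and depth, and the genes were picked for likeness in these same values, so this is a description. Test results of the picked genes follow in part from that choice and are no independent support. Nearest to ilys-2 were bcmo-2 (distance 0.357), a gene of the beta-carotene oxygenase family, and the UDP-glycosyltransferase genes ugt-1 (0.548) and ugt-62 (0.686), while the profile of ilys-2 itself had a root mean square of 1.44. bcmo-2 averaged 2.09 CPM in ns889 with mold, 1.40 in ns889 without mold, 22.2 in WT with mold and 3.66 in WT without mold. Without mold bcmo-2 was lower in ns889 than in WT (log2 fold change -1.38 ± 0.17, adjusted p = 0.000439). Its mold responses differed by -2.02 ± 0.23 (adjusted p = 0.00281). In ns889 bcmo-2 changed with mold by 0.58 ± 0.17 (adjusted p = 0.0973), where ilys-2 changed by -1.11 ± 0.49, and neither passed.

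Nearest to ilys-5 were rips-1 (distance 0.378), E02H4.7 (0.395) and the UDP-glycosyltransferase gene ugt-41 (0.401), against 0.850 for the profile of ilys-5 itself. ugt-41 averaged 13.3 CPM in ns889 with mold, 50.3 in ns889 without mold, 73.0 in WT with mold and 89.1 in WT without mold. rips-1 averaged 28.5 CPM in ns889 with mold, 61.8 in ns889 without mold, 58.1 in WT with mold and 66.9 in WT without mold. With mold in ns889, ugt-41 (log2 fold change -1.92 ± 0.13, adjusted p = 1.59e-05), E02H4.7 (-1.88 ± 0.28, adjusted p = 0.00294) and rips-1 (-1.12 ± 0.22, adjusted p = 0.0174) fell. They were picked for likeness to ilys-5 over these replicates, so the shared fall is no independent result. The call of rips-1 was lost without the libraries that stood apart (adjusted p = 0.0544). Of these 3, ugt-41 alone also passed for the difference of the responses (-1.63 ± 0.18, adjusted p = 0.00234, against 0.870 for each of the others). For ilys-4 the nearest were ZK1320.2 (0.0992), F35C8.5 (0.109) and ZK1320.3 (0.111), against 0.263 for the profile of ilys-4 itself. For ilys-3 they were vem-1 (0.142), the yolk protein gene vit-2 (0.159) and Y47G6A.5 (0.167), against 0.290 for the profile of ilys-3 itself. As ilys-3 had at most 0.513 CPM in a replicate, the added 0.5 CPM flattens its profile. It also flattens the profile of ilys-2, which had at most 0.295 CPM outside WT with mold. The neighbours named here depend on the added 0.5 CPM. With 0.1 CPM added instead, ilys-5 kept all 3 of its neighbours and ilys-2 kept 2 (cyp-14A4 took the place of ugt-62), while ilys-4 kept 1 (ZK1320.2) and ilys-3 kept 1 (vem-1). The distance of bcmo-2 from ilys-2 was then 0.778, against 2.10 for the profile of ilys-2 itself.

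**Figure D4:**
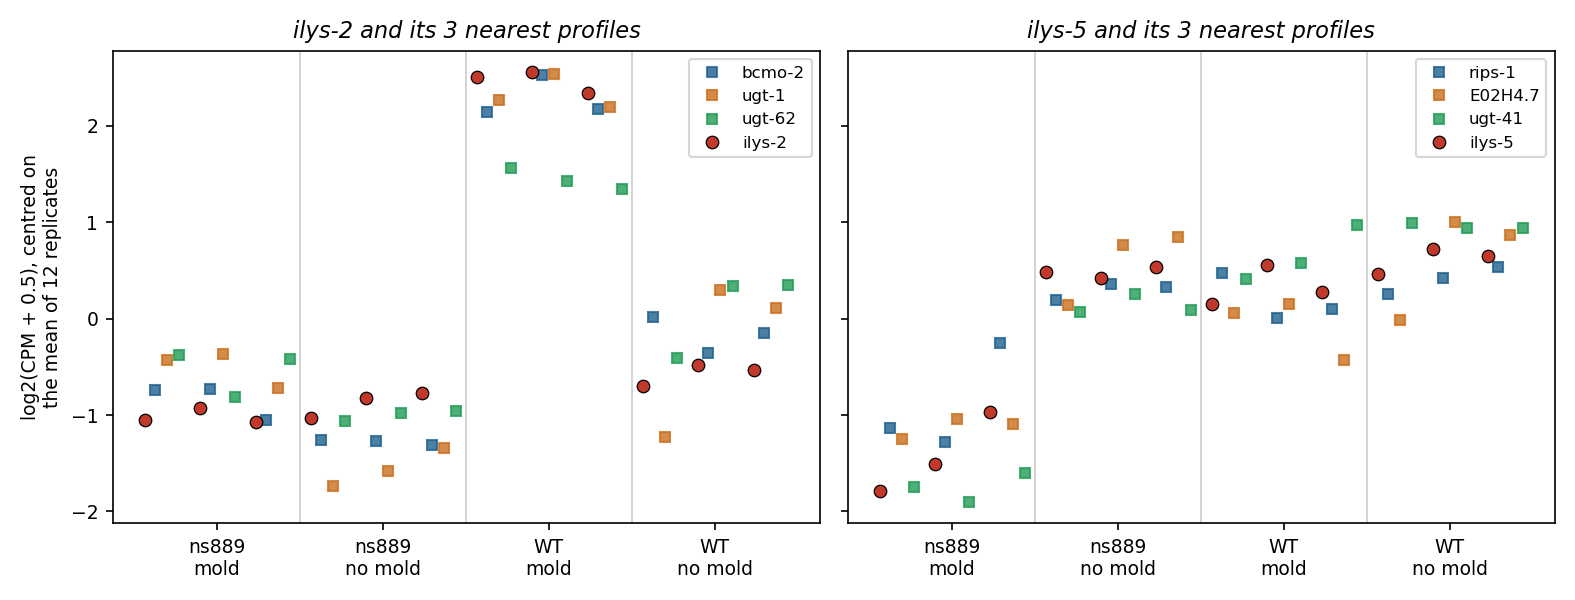
Profiles of ilys-2 (left) and ilys-5 (right) with their 3 nearest genes, as log2(CPM + 0.5) centred on the mean of the 12 replicates, with replicates 1 to 3 of each group from left to right. ilys-2, bcmo-2 and ugt-1 stand highest in WT with mold, and ilys-5 and its neighbours stand lowest in ns889 with mold.

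The other protein-coding genes within 20000 bases of the ilys-3, ilys-2 and ilys-1 cluster were cdh-10, C45G7.13, grd-16, Y69A2AL.2 and Y69A2AR.19. None of these 5 passed in the difference of the responses or in either genotype comparison, where ilys-2 and ilys-3 were lower in ns889 on mold. Y69A2AL.2 rose with mold in ns889 (0.65 ± 0.15, adjusted p = 0.0328) and Y69A2AR.19 fell with mold in WT (-1.02 ± 0.23, adjusted p = 0.0324). None of the 5 rose with ilys-2 in WT past the threshold, although Y69A2AL.2 changed there by 0.50 ± 0.15 (adjusted p = 0.0593), near its value in ns889. grd-16 had only 2 to 20 counts in a replicate.

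The protist-type lysozyme genes, which encode the worm's other lysozyme family, numbered 10 in the table, and 9 were tested. In ns889 with mold 2 rose, lys-2 (2.43 ± 0.27) and lys-1 (0.74 ± 0.13), and 2 fell, lys-7 (-2.22 ± 0.25) and lys-5 (-1.98 ± 0.37). The median of the 9 was -0.56, against -0.02 over all tested genes. In WT with mold lys-2 (2.11 ± 0.26) and lys-1 (0.74 ± 0.13) rose as well and lys-5 (-1.91 ± 0.37) fell, with a median of -0.39 against 0.01 over all tested genes. With mold 1 of 9, lys-7, was lower in ns889 than in WT (-1.31 ± 0.24, adjusted p = 0.00641), and without mold 0 of 9 passed. In the difference of the responses 1 of 9 passed, again lys-7 (-2.07 ± 0.34, adjusted p = 0.0372). Leaving out 1 library moved these counts, among them the lys-7 difference, which did not pass without any 1 of the 6 ns889 libraries, WT mold replicate 2 or WT no mold replicate 3. In the response of WT 0 fell without WT mold replicate 2 or 3 or WT no mold replicate 2 or 3, and 2 fell without replicate 1 of either WT group. In the response of ns889 1 rose without ns889 no mold replicate 1 or 2, and 1 fell without ns889 no mold replicate 2 or ns889 mold replicate 2.

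Of 16 tested saposin-like caenopore genes, whose products permeabilise membranes, 2 rose and 1 fell with mold in ns889, and 3 rose in WT (median log2 fold change 0.17 in ns889 and 0.19 in WT). On mold 1 was higher and 2 were lower in ns889 than in WT. With 1 library left out the ns889 counts ran from 1 to 3 higher and from 0 to 1 lower, and the WT count was 1 without WT mold replicate 2 or 3 or WT no mold replicate 2 or 3. On mold these counts then ran from 0 to 2 in each direction. Of 5 tested antibacterial factor genes and 4 genes of chitin-degrading enzymes, 0 passed in all 5 comparisons, and at most 1 in each direction did with 1 library left out. Without the libraries that stood apart, 2 genes of chitin-degrading enzymes rose with mold in ns889 and 1 rose in WT. In the same refit 1 antibacterial factor gene fell with mold in each genotype, and 1 was lower in ns889 than in WT on mold.

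Signalling genes that are known to act upstream of immune effectors were read beside the ilys genes. Of the 8 genes of the ERK MAP kinase pathway, 0 passed in the 5 comparisons with all libraries. In WT with mold their median was 0.17, and 2 rose without WT mold replicate 1 and 3 without WT no mold replicate 1. Of the 8 genes of the p38 MAP kinase immune pathway, 0 changed with mold in ns889 (1 rose without WT no mold replicate 1), and in WT 1 rose, the transcription factor gene atf-7 (0.29 ± 0.05). The WT count was 0 without WT no mold replicate 2 or 3, and 2 without WT no mold replicate 1 or ns889 mold replicate 1. On mold dkf-2 was higher (0.26 ± 0.06) and atf-7 lower (-0.23 ± 0.05) in ns889 than in WT, and neither passed without ns889 mold replicate 2 or 3 or WT mold replicate 2, nor did dkf-2 without ns889 mold replicate 1. Without mold dkf-2 was also higher in ns889 (0.27 ± 0.06), a count that was 0 in 6 of the 12 refits. Of the 8 genes of the DBL-1 pathway 0 passed, and in WT up to 2 fell and up to 1 rose with 1 library left out. Of 8 intestinal transcription factor genes 1 rose with mold in WT, skn-1 (0.33 ± 0.07), a count that ran from 0 to 3 with 1 library left out.

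Markers of the tissues in which lysozymes act were read beside these results. The summed level of 11 intestinal markers ran from 4709 to 5206 CPM in ns889 with mold, from 3746 to 3991 CPM in ns889 without mold, from 3880 to 4955 CPM in WT with mold and from 3409 to 4283 CPM in WT without mold. With mold 1 of the 11 rose in ns889 (asp-1), a count that was 0 when any of the 6 ns889 libraries was left out. In WT 1 rose (pgp-1), and 2 without WT mold replicate 3. Between genotypes on mold 0 of the 11 passed. Without mold pgp-1 was higher in ns889 than in WT (log2 fold change 1.43, adjusted p = 0.00705). The number higher was 1 in each of the 12 refits with 1 library left out, and the number lower ran from 0 to 1. The 13 pharyngeal markers summed to 334 to 412 CPM in ns889 with mold, 441 to 492 CPM in ns889 without mold, 256 to 517 CPM in WT with mold and 430 to 563 CPM in WT without mold. Of the 12 tested, 1 fell with mold in ns889 (tni-4), a count that was 0 in 8 of the 12 refits with 1 library left out. In WT 0 passed, and up to 3 fell with 1 library left out. On mold 2 of them were higher in ns889 than in WT (phat-2 and phat-1), 1 was in 8 of the 12 refits, and phat-1 did not pass without the libraries that stood apart (adjusted p = 0.0769). Without mold phat-2 was also higher in ns889 than in WT (log2 fold change 1.74, adjusted p = 0.00174), a count of 1 in each of the 12 refits. phat-5 had 0 counts in both groups without mold. The 5 coelomocyte markers summed to 121 to 130 CPM in ns889 with mold, 128 to 132 CPM in ns889 without mold, 130 to 155 CPM in WT with mold and 117 to 135 CPM in WT without mold. Of the coelomocyte markers unc-122 was higher in ns889 than in WT with mold (0.53 ± 0.14, a count of 0 in 10 of the 12 refits) and without it (1.08 ± 0.14). The summed level of intestinal markers was thus higher, and that of pharyngeal markers lower, in ns889 with mold than in ns889 without it, where ilys-5 fell. The sums of 15 sperm markers (444 to 509 CPM in ns889 with mold and 582 to 642 CPM in ns889 without mold) and of 7 body wall muscle markers (10128 to 12007 CPM and 12336 to 12659 CPM) were also lower and did not overlap. In this comparison 31.6% of all tested genes had replicates that did not overlap. No sperm or muscle marker passed there with all libraries, whereas 9 sperm and 2 muscle markers fell without the libraries that stood apart. The part of these markers in the result for ilys-5 was not tested.

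In WT with mold, where ilys-2 rose, 5 of 15 sperm markers fell and 0 of 14 oocyte and eggshell markers passed. The sperm count was 0 without WT mold replicate 2 or either of WT no mold replicates 2 and 3, 1 without WT mold replicate 3, 9 without WT no mold replicate 1 and 13 without WT mold replicate 1. It was 1 to 3 in 5 of the 6 refits without an ns889 library. The oocyte count was 12 higher without WT no mold replicate 1. Over all tested genes 1.67% were higher and 4.6% lower in WT with mold with all libraries. The number called over all genes ran from 159 to 4810 in the same 12 refits, with 4810 without WT no mold replicate 1. The rise of ilys-2 in WT lay between 4.33 and 4.65 in all 12 refits with 1 library left out, those libraries included. On mold 2 sperm, 2 epidermal and 1 neuronal marker were higher and 2 oocyte markers lower in ns889 than in WT, where ilys-2, ilys-3 and ilys-5 were lower. With 1 library left out these counts ran from 1 to 4 for sperm, from 0 to 6 for epidermis, from 0 to 1 for neurons and from 0 to 3 for oocytes. Across the same refits on mold, ilys-2 lay between -7.39 and -6.54, ilys-3 between -5.20 and -3.31 and ilys-5 between -1.98 and -1.55, and all 3 passed in each. For the 10 epidermal markers on mold, the median log2 fold change of ns889 over WT was 1.41, against -0.01 over all tested genes. Their summed level was not higher in ns889, at 2421 to 2844 CPM against 2830 to 3171 CPM in WT. Of 7 muscle and 6 glial markers 0 passed in the 5 comparisons, and with 1 library left out up to 5 muscle markers fell and up to 1 glial marker rose in WT. The part of these markers in the results for the ilys genes was not tested.

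Without both libraries that stood apart, several lists held more calls. With mold in ns889, 4 caenopore genes rose and 2 fell, 3 protist-type lysozyme genes fell, 4 intestinal markers rose, 3 pharyngeal markers fell and 1 gene of the p38 pathway rose. With mold in WT, 5 caenopore genes rose, 3 protist-type lysozyme genes rose, 3 genes of the ERK pathway and 2 of the p38 pathway rose, 2 intestinal markers rose, 2 pharyngeal markers fell, and 10 sperm markers fell while 10 oocyte and eggshell markers rose. On mold, 4 caenopore genes and 2 pharyngeal markers were lower in ns889 than in WT, and 4 sperm markers were higher and 2 lower. Without mold, 3 caenopore genes, 5 sperm markers, 2 intestinal markers and 1 pharyngeal marker were lower in ns889 than in WT. In that comparison 1 intestinal marker and 2 pharyngeal markers were higher in ns889. For the difference of the responses, 1 intestinal marker had a lower response in ns889 than in WT. Over all tested genes the same refit called 2024 for ns889 with mold, against 534 with all libraries, and 3860 for WT with mold, against 1064. Between the genotypes it called 1873 with mold (1143 with all libraries) and 1317 without mold (488). For the difference of the responses it called 114 (22 with all libraries). Higher counts in these lists are therefore read against a higher count over all genes.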

How the data were processed

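Polyadenylated RNA of whole animals was sequenced with the TruSeq stranded mRNA kit, per the labels' protocols. The authors deposited 1 table of raw counts per gene, without normalization, for 20 libraries. The submitters' processing notes list FastQC 0.11.12, STAR 2.4a, featureCounts, edgeR 3.28.1 and limma 3.42.2, with genome WBcel235. How strand was set in counting, and which annotation release was used, is not given in the sources used here. Coordinates are those of the deposited table, and transcripts and coding lengths are those of Ensembl release 115 of the same build. Symbols were matched by WormBase identifier (44017 of 46904).

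Replicates 2 and 3 of each group had 2 sequencing runs, which were summed. Chi-square over degrees of freedom was 1.08 to 1.12 between runs of a replicate and 12.1 to 193 between replicates of a group. The test was edgeR's quasi-likelihood test (edgeR 4.0.16, R 4.3.3; filterByExpr, TMM, estimateDisp, robust glmQLFit and glmQLFTest), fitted to all 12 replicates as 1 model of group means. Benjamini-Hochberg adjustment covered all 16980 tested genes, and an adjusted p under 0.05 was the threshold. RPKM used the gene length in the table. The procedure was tested on simulated data.

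The 6 members, the 8 gene lists and 9 marker lists and the libraries left out as a pair were chosen with earlier results of these data known. All 6 members are named, along with the 3 nearest profiles of each tested member and list genes past the threshold. Alternatives tried were DESeq2 1.42.0, limma-voom (limma 3.58.1), RLE size factors, filters on low counts (none, or 5 CPM on average), the first run of each replicate, the replicate block, a fit to the 2 groups compared and fits that left out replicates.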

Additional observations from a re-analysis of the deposited data

Results flagged for a closer look

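The mold responses of ns889 and WT differed for ilys-2 and ilys-5 in a test of the difference itself. The value for ilys-2 was -5.62 on the log2 scale (adjusted p = 0.0020, edgeR), with a response of -1.11 ± 0.49 in ns889 and of 4.51 ± 0.34 in WT. For ilys-5 it was -1.58 (adjusted p = 0.0238), with a response of -1.87 ± 0.18 in ns889 and of -0.28 ± 0.17 in WT. The ilys-5 call was near the threshold and was lost in 9 of the 12 refits with 1 library left out. It was also lost without the libraries that stood apart (adjusted p = 0.0979).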

How the results depend on the processing

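Directions and calls of the 4 tested ilys genes kept their side of the threshold in 376 of the recomputed values. They fell below it in 12, rose above it in 8 and changed sign in 8. The signs turned only for values near 0: the ilys-4 difference of responses became -0.0058 with limma-voom and -0.0066 with the replicate block, and it ran from -0.10 to 0.12 with 1 library left out, while the ilys-3 difference between genotypes without mold ran from -0.18 to 0.65. The numbers of members called moved as follows. With DESeq2 there were 3 for ns889 with mold, 2 for WT with mold and 1 for the genotypes without mold. DESeq2 also called ilys-3 for the difference of the responses (adjusted p = 0.00737), beside ilys-2 and ilys-5. Without WT no mold replicate 1 and WT mold replicate 3 together there were 3 for ns889 with mold and 1 for the difference of the responses, where 2024 of all tested genes were called for ns889 with mold (534 with all libraries) and 114 for the difference (22 with all libraries). With a mean of at least 5 CPM only 2 members were tested, and the counts were 0 for WT with mold, 1 for the genotypes with mold and 0 for the difference. Without a filter the difference count was 1, with ilys-5 at adjusted p = 0.0766. With 1 library left out the counts ran from 1 to 2 for ns889 with mold and from 1 to 2 for the difference. Under the stricter filter ilys-2 and ilys-3 were not tested. ilys-5 was tested there and did not pass for the difference (-1.54, adjusted p = 0.0767). The cause of these moves in the calls of tested members was not tested.

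The replicate numbers were not taken to pair the samples. The correlations of same-numbered deviations were 0.24, 0.07 and 0.04 between the ns889 groups, -0.45, 0.38 and -0.48 between the WT groups, -0.03, 0.16 and -0.12 between the genotypes with mold and 0.40, -0.05 and 0.51 without mold, so that no comparison had all 3 over 0.1. With the replicate number as a block, the counts of members called were 1 for ns889 with mold, 1 for WT with mold, 3 for the genotypes with mold, 0 without mold and 2 for the difference. Over all genes the block gave 312 calls for WT with mold, against 1064 without it. Single libraries moved the calls over all genes too, to between 209 and 810 for ns889 with mold, 159 and 4810 for WT with mold, 545 and 2185 for the genotypes with mold, 319 and 669 without mold and 15 and 39 for the difference. DESeq2 called 983, 2287, 1964, 809 and 77 genes in the same order. ilys-1 had too few counts to test and ilys-6 had 0 counts, so no change was detectable for them. Low counts also limit the results for ilys-3. Whether depth sets these limits was not tested.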
